A study of Mus musculus with 6 samples.

Results

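YTHDC1 peaks in long coding exons of C2C12 myoblasts were taken as the peaks of the first C2C12 library (bio1) that shared at least 1 nt with a peak of the second (bio2), on the same strand, and whose centre lay in coding sequence, within an exon of at least 400 nt. Exon length was that of the longest annotated exon holding the centre (mm9, GENCODE), and the gene had to lie on the strand opposite to the reads, because the reads are of complementary DNA. The rule found 5392 peaks, which are 18.5% of the 29087 peaks found in both libraries, of 60540 in bio1. They lay in 2313 exons of 1915 genes. Another 103 peaks found in both libraries lay in long coding exons of genes on the strand of the reads and were left out. The rule used position and replication and set no threshold of its own on reads. Replication still favoured peaks with more reads, which were found again more often, as given below. It left 34 peaks just inside the exon length, at 400 to 409 nt, with medians of 7.17 reads per 20-nt bin in bio1 and 8 in bio2, and 37 just outside it, at 390 to 399 nt, with medians of 8 and 8.

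The series held 178779 peaks in 6 libraries, all from wild-type mouse cells that were crosslinked with UV light and precipitated with an antibody to YTHDC1, with no input or other-antibody library among them. C2C12 is an established mouse myoblast line, and bio1 and bio2 were its 2 libraries. The other 4 libraries were ASC-48h, which are satellite cells (the stem cells of skeletal muscle) sorted from mouse hindlimb muscle and cultured for 48 hours, as 2 biological replicates with 2 technical replicates each. The study's methods sort such cells by a GFP or EYFP reporter carried by the mice, so wild-type leaves such a reporter aside. Which of its reporter mice gave these libraries is not stated there. The labels number the C2C12 libraries as biological replicates, while the study's text calls them technical replicates, so the spread between them may be technical only. Of 8 myoblast marker genes, 6 held a peak found in both C2C12 libraries, with 23 in Vim, 11 in Itga7 and 10 in Des, while Myod1 and Msc held 0. Of the 16 markers of endothelial, immune, liver, nerve and fat cells, Pecam1 held 1 peak and the others held 0.

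YTHDC1 is a nuclear protein whose YTH domain binds N6-methyladenosine (m6A), a methyl mark that methyltransferase complexes place on adenosines of messenger RNA, mostly within the sequence GGAC and its relatives. m6A is known to gather in long internal exons and near stop codons. Bound by YTHDC1, such RNA is spliced, exported from the nucleus or held in nuclear condensates. LACE-seq maps the bound sites from the ends of complementary DNAs that stop where the protein is crosslinked to the RNA.

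The sequences under the highest of the 5392 peaks show what the reads were piled on. Each window below is 60 nt of mm9, the central bin and 20 nt on either side, written as the RNA strand reads with T for U. Capitals mark GGAC, the core of the m6A consensus, and TGCC, which stands in 4 of the 10 pentamers most over-represented under these peaks and was singled out after its values were seen. The first set holds 7 of the 10 peaks with the highest mean over bio1 and bio2.
Ahnak, chr19:9078461-9078520, plus strand: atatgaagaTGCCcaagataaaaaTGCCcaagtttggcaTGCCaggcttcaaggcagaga
Ahnak, chr19:9078981-9079040, plus strand: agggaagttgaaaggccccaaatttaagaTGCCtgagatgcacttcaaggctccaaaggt
Ahnak, chr19:9083701-9083760, plus strand: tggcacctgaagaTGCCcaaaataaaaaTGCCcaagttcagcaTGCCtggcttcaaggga
Ash1l, chr3:88788841-88788900, plus strand: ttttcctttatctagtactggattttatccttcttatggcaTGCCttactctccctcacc
Tatdn2, chr6:113654781-113654840, plus strand: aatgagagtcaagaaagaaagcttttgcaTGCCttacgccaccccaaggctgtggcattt
Mgat1, chr11:49074961-49075020, plus strand: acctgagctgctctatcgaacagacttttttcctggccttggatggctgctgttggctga
mt-Nd1, chrM:3041-3100, plus strand: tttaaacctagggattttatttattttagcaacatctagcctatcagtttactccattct
The highest of them, in Ahnak, had 46 reads per bin in bio1 and 24 in bio2. The other Ahnak windows had 32 and 26 reads each, Ash1l had 37 and 22, Tatdn2 27 and 29, Mgat1 35 and 27, and mt-Nd1 29 and 28. The remaining 3 of the 10 highest lay in Gm5506 (28 and 37 reads), mt-Cytb (29 and 34) and Tuba1c (30 and 32). TGCC stood in 6 of the 10 windows and GGAC in 1, that of Gm5506, which also held TGCC.

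All of these windows lie in genes on the plus strand, and the strand limited what such a ranking could hold. In each of the 6 libraries no peak with reads on the plus strand, from genes on the minus strand, exceeded 20 reads per bin. Peaks with reads on the minus strand reached 62 in C2C12 bio1, 64 in bio2 and 46 to 62 in ASC-48h, and 472 peaks of bio1 and 395 of bio2 exceeded 20. The median was 7 reads per bin on both strands of both C2C12 libraries. How duplicate reads were treated is not given in the sources used here, and the source of the difference was not tested. Of the peaks in long coding exons, 3134 (58.1%) lay in 1080 genes on the plus strand and 2258 in 835 genes on the minus strand, whereas the plus strand carried 50.1% of the coding nucleotides of long exons. Where reads per bin are compared between sets of peaks below, the values of each strand are given as well. The highest peaks in genes on the minus strand, chosen after their values were seen, are shown by 3 of the first 5.
Kctd11, chr11:69693531-69693590, minus strand: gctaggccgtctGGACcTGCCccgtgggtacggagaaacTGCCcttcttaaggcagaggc
Phip, chr9:82765201-82765260, minus strand: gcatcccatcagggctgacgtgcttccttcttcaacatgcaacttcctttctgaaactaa
Hist1h2be, chr13:23677681-23677740, minus strand: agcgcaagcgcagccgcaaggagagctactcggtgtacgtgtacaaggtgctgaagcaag
Kctd11, which encodes an adaptor of a ubiquitin ligase, had 14 reads per bin in bio1 and 18 in bio2, and Phip 18 and 14. The histone gene Hist1h2be had 14 and 17, with its 20-nt sequence in 13 copies. The other 2 of the 5, Gm3272 and Gm3839, had 17 and 14 and 16 and 15 reads and share their 20-nt sequence with each other, in 135 copies in the genome. A last set gives the 3 highest peaks of 1 genomic copy whose window holds GGAC, also chosen after their values were seen. In all 3 windows GGAC lies in the 20 nt upstream of the central bin, not in the bin itself.
Pkd1, chr17:24711801-24711860, plus strand: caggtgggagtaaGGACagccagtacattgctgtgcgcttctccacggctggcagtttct
Pcdh7, chr5:58111141-58111200, plus strand: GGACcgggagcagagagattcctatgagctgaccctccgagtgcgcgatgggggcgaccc
Smcr8, chr11:60593061-60593120, plus strand: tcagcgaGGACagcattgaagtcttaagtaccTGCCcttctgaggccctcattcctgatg
Pkd1, which encodes polycystin, a large membrane protein, had 21 and 25 reads per bin there, the protocadherin gene Pcdh7 had 21 and 23, and Smcr8, an autophagy factor, had 18 and 26.

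In C2C12 the peaks in long coding exons were mostly low and narrow. In bio1 they had from 6 to 46 reads per bin with a median of 8, and in bio2 from 6 to 38 with a median of 8. On the plus strand of the genes the medians were 9 and 9, on the minus strand 7.67 and 8. The 2705 peaks in coding exons under 400 nt had medians of 8.5 and 8 on the plus strand and 8 and 7.5 on the minus strand, with maxima of 28 and 27. The lowest value listed in either library was 6, so most peaks stood near the lowest level that was called. Of the 5392 peaks, 84.1% were 1 bin wide. The Pearson correlation of log2 reads between the libraries was 0.483 and Spearman's rho was 0.401, across peaks that share 2 libraries. The Pearson value was 0.487 in genes on the plus strand and 0.344 in genes on the minus strand. The files give no total read number. The reads summed over called bins came to 523067 in bio1, 607366 in bio2 and 57953 to 111729 in ASC-48h, so the depth of a library is known only as far as its peaks go. Intervals below are 95% intervals and cover the spread between genes or the counting error, not the spread between cultures.

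**Figure D1:**
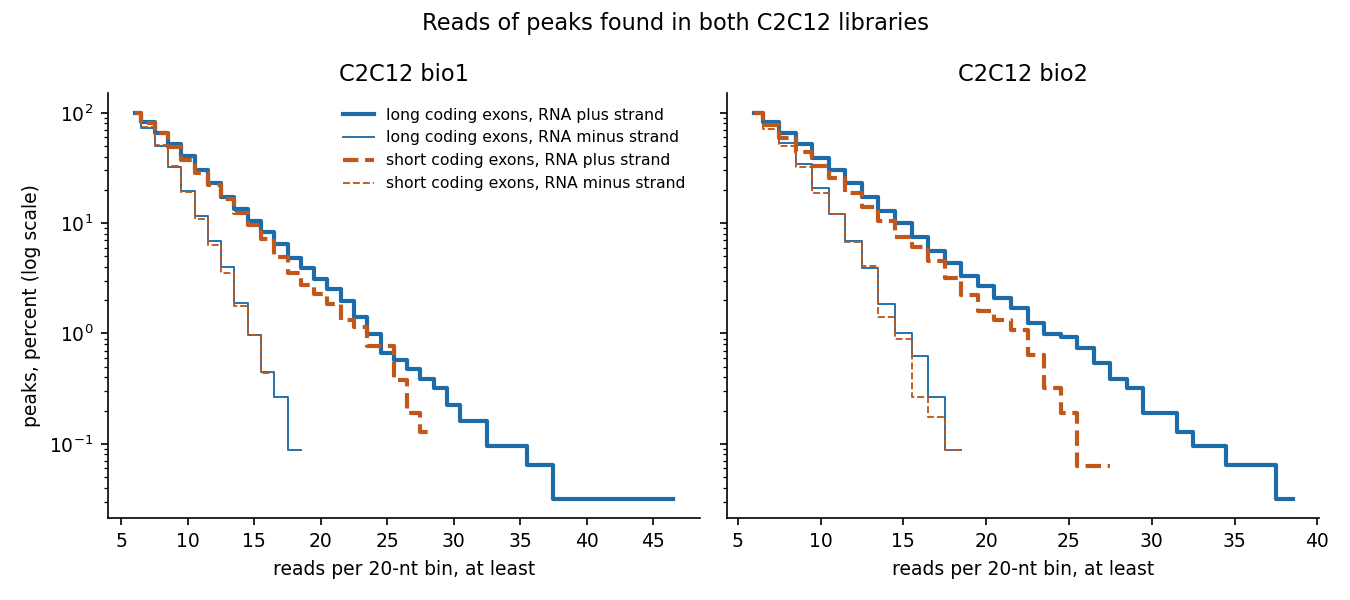
Share of peaks (percent, log scale) with at least the given number of reads per 20-nt bin, for peaks found in both C2C12 libraries in long (400 nt or more) and short coding exons, by the strand of the gene. On the minus strand long and short exons run close to each other, and no line passes 18 reads. On the plus strand they part at high reads, with 2.68% of long-exon and 1.59% of short-exon peaks at 20 or more in bio2. Long exons reach 46 in bio1 and 38 in bio2 there, and short exons 28 and 27.

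Within the same gene, the reads per bin of peaks in long and short coding exons differed by little, and the call depended on the setting. In 427 genes with both kinds, the mean log2 number of reads per bin in bio1 was 3.07 in long and 3.05 in short exons, a difference of 0.01 (interval -0.03 to 0.06) that did not pass the test. It was 0.0355 (-0.0289 to 0.1) over the genes on the plus strand and -0.019 (-0.0735 to 0.0355) over those on the minus strand. Over all bio1 peaks, found again or not, it was 0.0389 (0.0141 to 0.0638), which passed. Among peaks with a p-value of at most 0.00001 it was -0.175 (-0.302 to -0.0479), in 43 genes. The p-value follows the reads per bin, so that filter selects on the compared value and no conclusion is drawn from it. In bio2, where each peak took the highest value of the bio2 peaks it overlapped, the difference was 0.05 (0.0019 to 0.0909), which passed narrowly. It was 0.08 (0.01 to 0.14) over the genes on the plus strand and -0.00167 (-0.0558 to 0.0525) over those on the minus strand.

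The share of peaks found again was higher in long than in short exons in the direction that defines the members. Of the 10301 bio1 peaks in long coding exons, 52.3% (51.4 to 53.3) overlapped a bio2 peak, against 45.5% (44.2 to 46.8) of 5945 in short coding exons and 49.8% of all 16246 in coding exons. The difference was 6.84 percentage points (5.25 to 8.43), and the odds ratio in a logistic model with the log2 number of reads, with genes as clusters, was 1.25 (1.14 to 1.36). The share found again was 45.2% in long and 38.5% in short exons at 6 to 9 reads per bin, 79.0% in both at 10 to 19 reads, and 98.0% and 97.3% at 20 or more. Searched the other way, 49.9% of 10771 bio2 peaks in long exons and 49.3% of 5498 in short ones overlapped a bio1 peak, and the odds ratio was 0.915 (0.841 to 0.996). The share was still slightly higher in long exons, while the odds ratio at equal reads turned below 1, and no difference between the exon classes is drawn from it.

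Long exons held most of the coding peaks. Of the 8097 peaks in coding sequence found in both libraries, 66.6% lay in long exons by the longest annotated exon of any transcript. With peaks and nucleotides both taken from the transcript with the longest coding sequence of each gene, 61.7% of 7968 peaks lay in long exons, which made up 44.2% of the coding nucleotides of the 2604 genes. Peak density was then compared within genes, so that both exon classes share the gene's RNA level. Over 1872 genes with coding sequence in both exon classes, long exons had 1.53 peaks per kb and short exons 0.786 per kb, and the within-gene ratio (Mantel-Haenszel, each gene its own stratum) was 2.5 (2.27 to 2.74). The density was higher in the long exons of 1162 of the genes. The ratio was 2.69 (2.42 to 3.0) in genes on the plus strand and 2.26 (1.94 to 2.63) in genes on the minus strand.

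The ratio to exons under 400 nt of the same genes was 1.66 (1.45 to 1.90) for exons of 400 to 599 nt, 2.43 (2.09 to 2.84) for 600 to 999 nt, 2.86 (2.46 to 3.33) for 1000 to 1999 nt, 2.98 (2.36 to 3.76) for 2000 to 4999 nt and 2.52 (1.69 to 3.76) from 5000 nt. The interval of the first class lay below those of the next 3, whose own intervals overlapped. Below the length rule the density also differed, with 1.27 times (1.13 to 1.43) as many peaks per kb in exons of 100 to 199 nt as in those under 100 nt of the same genes, and 1.46 times (1.25 to 1.70) as many in exons of 200 to 399 nt. The aligner did not split reads across exon junctions, so reads over a junction could not be placed. With coding nucleotides within 50 nt of an exon end left out, the ratio of long to short exons was 1.95 (1.78 to 2.14).

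**Figure D2:**
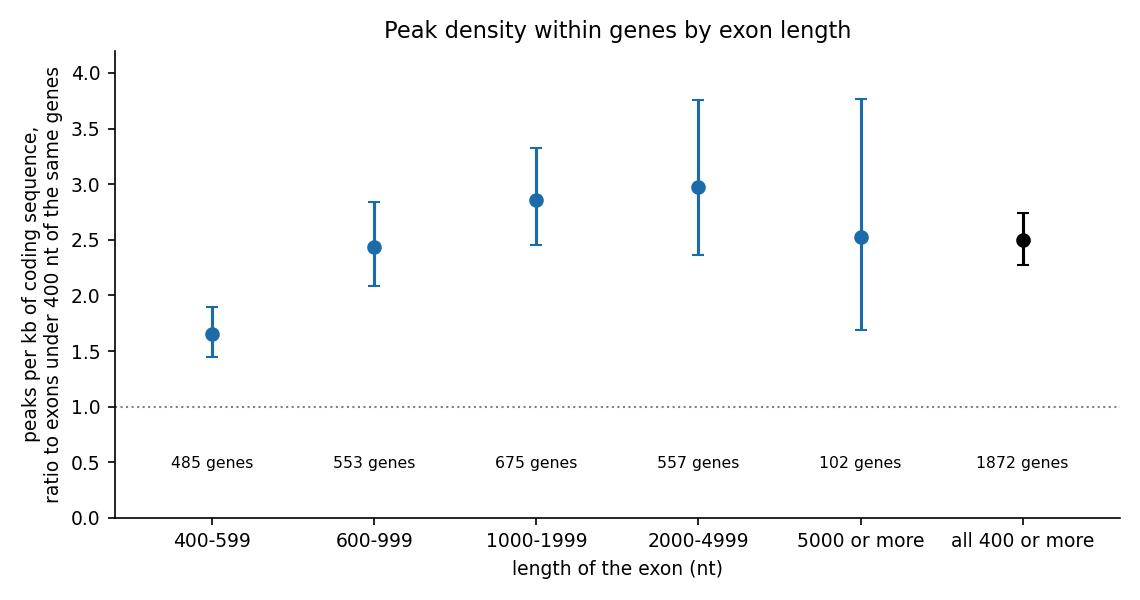
Peaks per kb of coding sequence in each class of exon length, as the ratio to exons under 400 nt of the same genes (points) with 95% intervals (bars). The ratio is 1.66 at 400 to 599 nt and between 2.43 and 2.98 in the longer classes, and 2.5 for all long exons.

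By place in the transcript, 39.6% of the 5392 peaks (2136, in 935 genes) lay in last exons, 31.7% (1711, in 620 genes) in internal exons, 15.8% (854, in 270 genes) in genes or transcripts of 1 exon and 12.5% (674, in 316 genes) in first exons. Transcripts disagreed for the other 17. Peaks in short exons were internal in 85.3% of cases. Median reads per bin in bio1 ran from 8 in internal exons to 10 in transcripts of 1 exon on the plus strand, and from 7 in first exons to 8 in last exons and transcripts of 1 exon on the minus strand. The 20-nt sequence occurred once only in the genome for 79.5% of all members, from 93.3% in internal exons and 89.5% in first exons to 80.1% in last exons and 42.3% in transcripts of 1 exon, a class that includes histone genes, mitochondrial genes and predicted genes with many genomic copies. Long internal exons had 2.97 times (2.57 to 3.43) the density of short internal exons of the same genes, long first exons 2.20 times (1.73 to 2.80) and long last exons 2.13 times (1.89 to 2.41). Between the long exons of 616 genes with both, last over internal came to 0.820 (0.671 to 1.00), which did not pass the test.

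Along long internal exons the peaks spread over the whole exon rather than at its ends. Distances were taken in the transcript with the longest coding sequence of each gene with a member, so these peaks are not exactly those counted by place above. The first 20 nt held 17 peaks at 0.949 per kb and the next 20 nt held 14 at 0.743 per kb, after which the density was 1.42 to 1.63 per kb in each class up to 5000 nt. At the other end the last 20 nt had 0.793 per kb, followed by 1.16, 1.39 and 1.32 per kb in the next 3 classes and at most 1.77 per kb, at 200 to 400 nt. In long last exons the density was 2.12 per kb (1.79 to 2.49) in the 50 nt upstream of the end of the coding sequence, 2.19 at 50 to 100 nt and 2.28 (1.99 to 2.59) at 100 to 200 nt. Farther upstream it was 1.93 per kb up to 1000 nt, 1.57 (1.38 to 1.78) at 1000 to 2000 nt and 1.76 at 2000 to 5000 nt. Only genes with a member were counted, and last exons with little coding sequence reach only the classes near its end. The classes thus hold different exons, and no rise toward the stop codon is drawn from them.

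**Figure D3:**
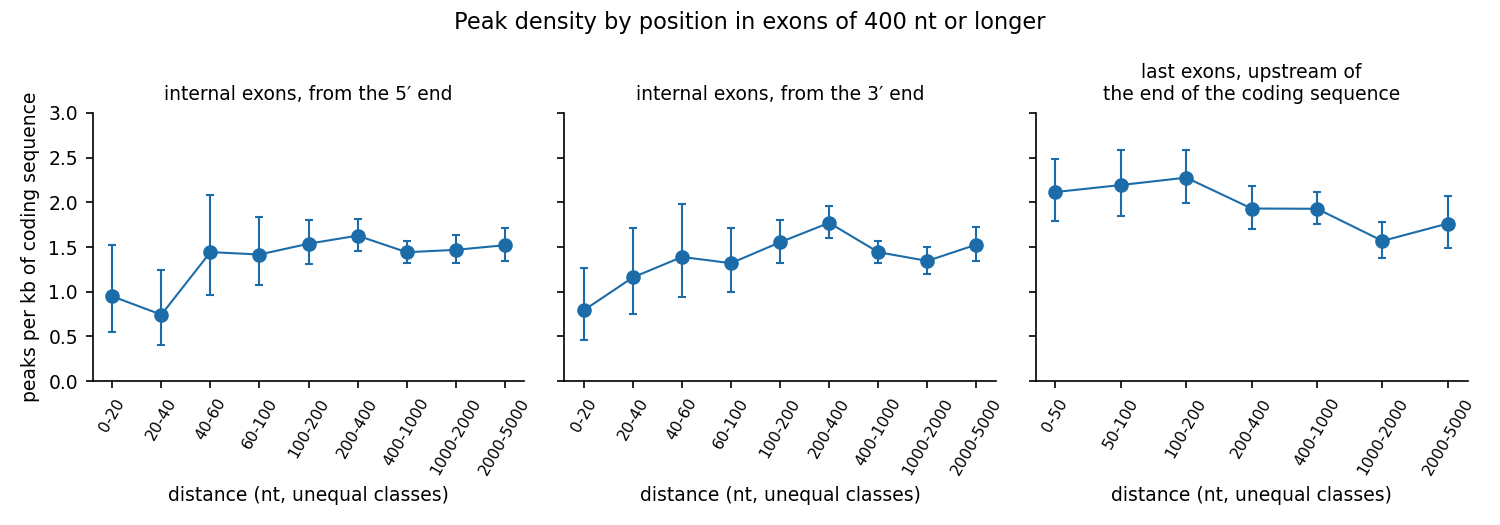
Peaks per kb of coding sequence by distance (nt, classes of unequal width) from the 5′ and 3′ ends of long internal exons and upstream of the end of the coding sequence in long last exons, with Poisson 95% intervals. Exons are those of the transcript with the longest coding sequence in genes with a member, and the classes do not all hold the same exons. The 2 classes nearest the 5′ end lie at 0.949 and 0.743 per kb, and the last exons lie between 1.57 and 2.28 per kb.

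A small number of very long exons held many peaks. Of the 22380 protein-coding genes, 8.56% held a member. Of the 1915 genes with a member, 971 held 1, 290 held at least 5 and 76 held at least 10, and these 76 had 1363 of the peaks. Neighbouring peaks within an exon stood a median of 140 nt apart, and 1195 of 3079 gaps (38.8%) were at most 100 nt. The 15 genes with most members had 591 of them, and those reported here are given by what their proteins do.

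Giant cytoskeletal and scaffold proteins came first. Ahnak, a scaffold protein of the cell cortex, had 149 peaks, all in its last exon of 17497 nt (chr19:9076189-9093685), with 6 to 46 reads per bin in bio1 (median 10) and 6 to 38 in bio2 (median 11.7). They lay from 22 to 16422 nt into the exon, at 8.96 per kb of coding sequence against 5.80 per kb in its short exons, which held 2. The exon is built of repeats, and 73 of the 149 have their 20-nt sequence in 1 copy. Plec, which encodes the cytolinker plectin, had 66 peaks, 50 of them in its last exon (chr15:76001404-76008815, 7412 nt). Its densities in long and short exons were close, at 6.51 and 6.35 per kb. Ahnak2, a paralogue of Ahnak, had 55 peaks with 6 to 14 reads in bio1 and 6 to 12 in bio2. Only 3 of them were in 1 copy, so their reads cannot be assigned to 1 place. Dst, another cytolinker, had 36 peaks, and in its transcript with the longest coding sequence 32 peaks in long exons stood at 3.75 per kb and those in short exons at 1.25 per kb. Nes, the intermediate filament protein nestin, had 20 peaks at 3.71 per kb in long exons and none in its 199 nt of short ones. Of 25 genes listed in this class, 18 (72%) held a member, 413 in all, against 8.56% of all protein-coding genes. Of their coding peaks, 75.4% lay in long exons, against 66.6% over all genes.

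Genes for nuclear proteins followed. Srrm2, a scaffold of nuclear speckles, had 40 peaks in 1 internal exon of 6569 nt (chr17:23952089-23958657), with a median of 10.5 reads per bin in both libraries and highest values of 23 and 21. Its long exon had 6.09 peaks per kb and its short exons 1.30. Son, another speckle scaffold, had 23 peaks at 3.71 per kb, all in a single internal exon, and 0 in short exons. Among 25 nuclear speckle and splicing genes, 11 (44%) held a member, and 82.3% of their 96 coding peaks lay in long exons, with Scaf1 next at 5 peaks. Ahdc1, a putative DNA-binding protein with AT hooks, had 34 peaks, all in 1 internal exon of 4902 nt (chr4:132617291-132622192) and all in 1 copy, with a median of 9.83 reads in bio1 and 9.75 in bio2. Zfhx3, a zinc finger homeobox factor, had 29 peaks at 2.79 per kb in long exons and 0 in short ones. Mll2, a histone methyltransferase, had 25 peaks at 2.38 per kb in long and 1.28 per kb in short exons. Of 43 listed chromatin regulator genes, which do not include the entry Mll2, 27 (62.8%) held a member, 71.3% of their coding peaks lay in long exons, and the most members were 11 in the remodeller subunit gene Arid1a and 10 each in the methyltransferase genes Nsd1 and Mll1. Of 340 genes named Zfp, 59 (17.4%) held a member and 92.4% of their coding peaks were in long exons, led by Zfp292 and Zfp281 with 7 each and Zfp703 with 6.

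Other genes of the 15 were of several kinds. Pkd1 had 24 peaks at 3.78 per kb in long and 1.53 per kb in short exons. The matrix proteoglycan gene Vcan had 23 at 2.80 per kb in long exons and 2.72 per kb in short ones. The collagen VI gene Col6a3 had 25 members and 8 peaks in short exons. Its transcript with the longest coding sequence held 15 in each class, at 3.12 per kb in long exons and a higher 4.73 per kb in short ones. The mitochondrial gene mt-Co1, a subunit of cytochrome oxidase, had 19 at 12.3 per kb, and the mitochondrial chromosome held 115 members in 10 genes. The 43 collagen genes had 33.3% of their coding peaks in long exons, against 66.6% over all genes, and 11 of them held a member, with 5 in Col1a2 and 3 in Col6a1.

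The m6A machinery, myogenesis and mitosis were covered by shorter lists. Of 19 genes for m6A writers, erasers and readers, 5 (26.3%) held a member, with 8 in Rbm15b and 7 in Rbm15, adaptors of the methyltransferase complex, and 3 in the cytoplasmic reader gene Ythdf3. Of their 24 coding peaks, 91.7% lay in long exons. Of 15 myogenic regulators, 3 (20%) held a member, among them Six4 with 9 peaks and Myf5 with 1. Of 30 mitosis, centrosome and replication genes, 10 (33.3%) held a member, with 18 in Mki67, the proliferation marker, 7 in Numa1, a spindle pole protein, and 3 in Casp8ap2. Each list stands above the 8.56% of all genes, but the lists were chosen with earlier results of these data known. The 8.56% also counts genes without a long exon, which cannot hold a member. Of all 22380 genes, 18279 had a long exon, against 25 of 25 giant genes and 332 of 340 Zfp genes. Among the myogenic regulators it was 11 of 15. Gene length and RNA level also differ between the lists and the genes at large, and no test was made.

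**Figure D4:**
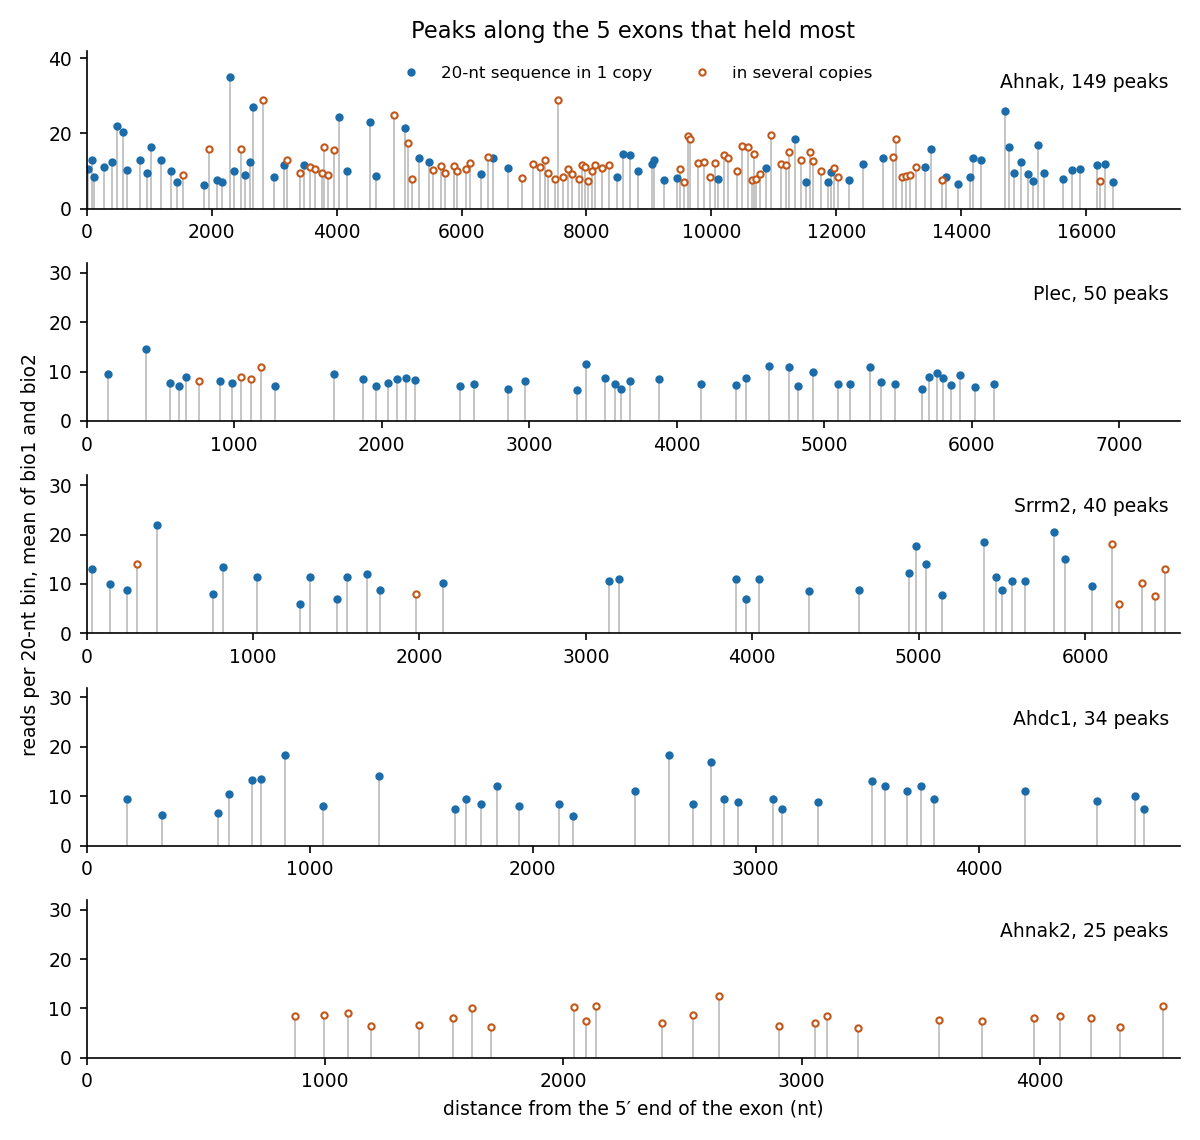
Each peak in the 5 exons that held most members, by its distance from the 5′ end of the exon (nt, horizontal) and its reads per 20-nt bin (vertical, mean of bio1 and bio2). Filled points have a 20-nt sequence in 1 genomic copy and open points in several. Peaks run along nearly the whole exon in Ahnak, Srrm2 and Ahdc1, and all 25 points of Ahnak2 are open.

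The m6A core GGAC was not more frequent under the peaks than elsewhere in the same exons. It stood in 22.5% (21.4 to 23.6) of the 60-nt windows, in 24.6% of windows at unbound bins of long exons of the same genes and in 23.9% of windows in short exons with a peak. Within genes the odds ratio of bound over unbound bins was 0.848 (0.791 to 0.909, 1913 genes), below 1. It was 0.873 (0.801 to 0.951) in genes on the plus strand and 0.817 (0.730 to 0.916) in genes on the minus strand. For GGACT it was 0.921 (0.807 to 1.05), which did not pass the test, and for GTCC, the reverse complement of GGAC, it was 1.147 (1.054 to 1.248). GGAC stood in 18.2% (15.4 to 21.3) of the windows of the 691 peaks with a mean of at least 12 reads, 612 of them in genes on the plus strand. It stood in 23.4% (21.8 to 25.1) of those at 8 to under 12 reads and in 22.8% (21.0 to 24.6) of those under 8. From the highest class to the lowest, the shares were 18.0%, 24.3% and 21.8% on the plus strand. They were 20.3% (12.04 to 30.8), 22.0% and 23.6% on the minus strand, with 79 peaks in the highest class. The windows of Pkd1, Pcdh7 and Smcr8 printed above are therefore not typical of the highest peaks. By distance, over the 4080 peaks with 150 nt of the exon on both sides, GGAC starts numbered 3.77 per 10 nt in 100 peaks in the 10 nt before the centre and 4.19 in the 10 nt after it, against 4.99 at unbound bins.

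TGCC, in contrast, was frequent under the peaks. It stood in 47.8% (46.5 to 49.2) of the windows against 27.6% at unbound bins, with a within-gene odds ratio of 2.57 (2.42 to 2.73). The ratio was 2.46 (2.28 to 2.65) in genes on the plus strand, 2.72 (2.48 to 2.99) in genes on the minus strand, 2.56 for peaks in 1 copy and 2.58 without Ahnak. It was not particular to long exons, since short exons with a peak held TGCC in 48.8% of windows, with an odds ratio of 2.45 (2.21 to 2.72). Its reverse complement GGCA had an odds ratio of 0.865 (0.803 to 0.932), so the excess was on the RNA strand. The share ranged from 42.5% in transcripts of 1 exon and 43.0% in first exons to 47.6% in internal and 51.9% in last exons. Over the same 4080 peaks, TGCC starts were most dense at the centre, with 12.8 per 10 nt in 100 peaks in the 10 nt after it, and fell to between 6.25 and 7.38 per 10 nt beyond 40 nt, against 5.67 at unbound bins. In windows without TGCC the odds ratio of GGAC was 0.879 (0.801 to 0.964).

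**Figure D5:**
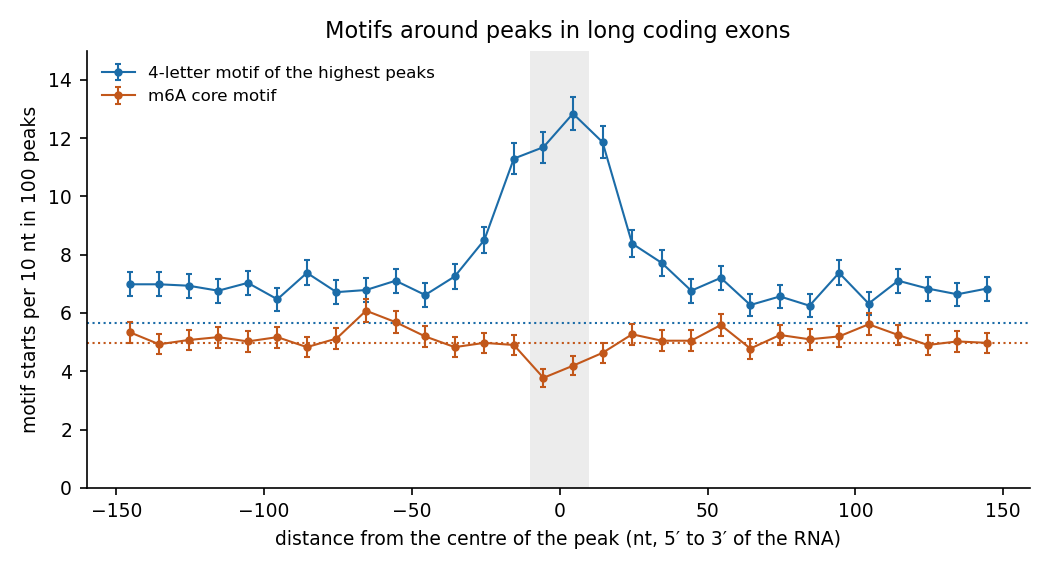
Starts of TGCC (blue, labelled as the motif of the highest peaks) and of GGAC (orange, the m6A core) per 10 nt in 100 peaks, over the 4080 peaks with 150 nt of the exon on both sides, by distance from the centre of the peak (nt, shaded: the 20-nt bin), with standard errors as bars and the level at unbound bins of long exons as dotted lines. TGCC rises to 12.8 at the centre, and GGAC dips to 3.77.

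All 1024 pentamers were compared in the same way, with the Benjamini-Hochberg adjustment. Of them, 27.6% (283) were more frequent in bound bins at an adjusted p under 0.05 and 35.6% (365) were less frequent, so that a difference from unbound bins was common. Bound bins were richer in C (31.9% against 27.2%) and poorer in A (21.4% against 25.5%) than unbound ones. ATGCC led with an odds ratio of 2.93 (2.67 to 3.21), followed by TGCCG with 2.64, TGCCT with 2.63 and GCCGT with 2.47, and TTAAA was lowest with 0.373. Of the 10 highest pentamers, 6 overlap into 1 run, TATGCCGTCT, with odds ratios of 2.0 to 2.93. The same 10 letters occur in an adapter of Illumina sequencing libraries. The part of library primers in the excess was not tested. Without the windows that hold TGCC, 2812 peaks were left, and the density ratio of long to short exons over these was 2.5 (2.24 to 2.80). TGCC stood in 47.8% of long-exon and 48.8% of short-exon windows. Leaving them out could therefore hardly move this ratio, and nothing is drawn from it. Among peaks of each library in long coding exons, TGCC stood in 46.3% and 45.9% of windows in bio1 and bio2 and in 33.8% to 44.6% in the ASC-48h libraries.

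Few of the C2C12 peaks in long coding exons were found in cultured satellite cells. Of the 5392, 452 (8.38%, 7.66 to 9.15) overlapped a peak of any ASC-48h library, against 14.5% of all peaks found in both C2C12 libraries and 6.36% (5.47 to 7.34) of those in short coding exons. The 4 libraries overlapped 55, 210, 157 and 304 of them, in the order of biological and then technical replicate, 148 (2.74%) were found in both biological replicates and 23 (0.427%) in all 4 libraries. The ASC-48h libraries listed 7925 to 19448 peaks, so the share is limited by what was called there. Peaks found in ASC-48h had medians of 11 reads per bin in both C2C12 libraries on the plus strand, and the others had 8.5. On the minus strand the medians were 8.5 and 8.94 against 7.5 and 8. Of the 452, 81 lay on the mitochondrial chromosome, where 70.4% of 115 members were found, and off it the share was 7.03%. Only 166 of the 452 were in 1 copy.

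The 23 peaks in all 4 ASC-48h libraries included peaks in mt-Co1 and in histone genes, and 22 of the 23 have their 20-nt sequence in 2 or more copies. The exception was in Hist3h2ba, a histone gene of 1 exon, at chr11:58762721-58762740. It had 16 and 14 reads per bin in C2C12 and 7, 8, 6 and 9 in the ASC-48h libraries. Cebpb, a transcription factor gene of 1 exon, had a peak in 1 copy at chr2:167515361-167515380 with 24 and 26 reads in C2C12 and 10, 10 and 9 in 3 of the ASC-48h libraries. Of the 26 Ahnak peaks found in ASC-48h, 6 were in 1 copy.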

How the data were processed

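All 6 peak lists were used. Reads were trimmed with cutadapt 1.15 and aligned to mm9 with Bowtie 1.2.3, with at most 2 mismatches and up to 10 positions per read kept, after pre-rRNA reads were removed. Peaks were called with Piranha in 20-nt bins at a p threshold of 0.001, settings that the methods name for ASC. The authors deposited, for each peak, a signal (reads per 20-nt bin, the mean over the bins of a wide peak), a p-value and the strand of the reads. Neither library totals nor the treatment of duplicate reads is given in the sources used here.

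Exons were taken from GENCODE vM1 on NCBIM37 (mm9), and the copies of a peak are the occurrences of its 20-nt sequence on either strand. Density and distance along exons used the transcript with the longest coding sequence. Place in the transcript (first, internal, last or single exon) used the transcripts holding the longest exon. The bio2 value of a member is the highest among the bio2 peaks it overlaps, so the same bio2 peak can serve several members. Windows extended the central 20-nt bin by 20 nt on either side. Density and motif ratios are Mantel-Haenszel ratios over genes with a variance summed over genes, difference intervals are Newcombe's, and intervals of shares are Clopper-Pearson, at 95%. Estimators were tested on simulated data (2000 genes, 8000 peaks) and passed 11 of 11 checks. Python 3.11.15, pandas 2.3.3, NumPy 2.4.6, SciPy 1.17.1, statsmodels 0.14.6 and pysam 0.24.0 were used.

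The members and gene lists were chosen with earlier results of these data known. Named were the 15 genes and 5 exons with most members, the 10 members with the highest mean reads and the 3 genes with most members in each of 8 lists. A few of these genes are not reported here. Of the symbols in the lists, 1, Kmt2d, had no match by name, and the file's Mll2 is not counted in that list. Alternatives changed the exon length, p-value, copies, transcript, overlap, window and library. Those on TGCC, Ahnak, the mitochondrial chromosome and the strand were chosen after seeing the data.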

Additional observations from a re-analysis of the deposited data

How the results depend on the processing

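Of 159 alternative values for 12 results, 112 kept their direction and side of the test or moved within their interval. The density ratio of long to short exons (1.95 to 2.97) and the odds ratio of TGCC (2.09 to 2.76) kept theirs in every alternative run. Some alternatives could not differ, so the count overstates how far the results were tried. No member had a run of 10 G nearby, and an overlap of at least 10 nt gave the same 5392 members. For the density ratio, the transcript with the longest coding sequence was already the main setting, and mitochondrial genes did not enter. No paired analysis was possible because the replicate numbers name libraries of different cell types that no test compares.

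The number of members was 746 at a p-value of at most 0.00001, 2812 without TGCC windows, 3134 and 2258 in genes on the plus and minus strands, and 10301 to 10771 when 1 library was left out. The share found again was 37.5% at the stricter p-value, 50.4% in 1 copy, 49.9% for bio2 peaks in bio1, 45.2%, 79.0% and 98.0% by rising class of reads, 50.9% without TGCC, and 55.1% and 48.9% on the plus and minus strands. Its odds ratio was 1.03 (0.870 to 1.22) at the stricter p-value and 0.915 for bio2 in bio1. The share of windows with GGAC was 19.7% at the stricter p-value, 42.7% with 50 nt on either side and 5.68% for GGACT, and its odds ratio was 0.95 (0.893 to 1.01) with 50 nt and 0.921 for GGACT, both no longer past the test. The share found in ASC-48h was 5.89% for exons from 1000 nt, 7.10% at the stricter p-value, 3.87% in 1 copy, 2.74% in both biological replicates, 7.03% without the mitochondrial chromosome, and 9.19% and 7.26% on the plus and minus strands. The share in internal exons was 28.6% from 1000 nt, 29.0% at the stricter p-value, 37.2% in 1 copy, 37.9% by the transcript with the longest coding sequence and 33.0% to 33.2% when 1 library was left out. The within-gene log2 difference of reads in bio1 was -0.00100 from 300 nt, -0.175 (-0.302 to -0.0479) at the stricter p-value in 43 genes, -0.00436 without TGCC and -0.019 on the minus strand. Over all bio1 peaks, found again or not, it was 0.0389, past the test. In bio2 it was 0.0299 from 300 nt, 0.0269 at the stricter p-value and 0.022 without TGCC, none past the test, and -0.00167 on the minus strand. The correlation between libraries was 0.529 without the log scale, 0.401 as Spearman's rho and 0.344 on the minus strand. The causes were not tested. Peaks near 6 reads per bin, the lowest listed in C2C12, limit what either library can show.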
